A study of Mus musculus with 2 samples.

Results

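Interleukin and interleukin receptor genes were compared between 2 arrays of imatinib-treated Ba/F3 cells, a mouse pro-B-like line that needs interleukin-3 (IL-3) to live unless an oncogene replaces it. The members are the genes whose symbol begins with Il and a digit, leaving out the IL-3 receptor alpha chain gene Il3ra, each measured by a probe set that names 1 gene only. This gave 75 members of 19935 genes measured in that way, 37 of them ligands or antagonists, 35 receptor chains and 3 others. Both groups were Ba/F3 cells constitutively expressing BCR-ABL, the fusion kinase of chronic myeloid leukaemia that imatinib inhibits, and both received imatinib at 5 µM over 6 h in medium with 10% serum. The group with IL-3 and the group without IL-3 had 1 array each. The submitters' question was how cells that IL-3 protects from imatinib differ in expression from cells that imatinib kills. The titles of both samples begin with Live, so the array without IL-3 is not titled as dying or dead cells. The sample whose title and source name give IL-3 carries a description that says without IL-3, and the source name of the array without IL-3 could also mean without imatinib. The titles were followed here, and every direction below turns if the titles are swapped. If the array without IL-3 was also without imatinib, the arrays would differ in the drug as well as in IL-3.

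Interleukins are secreted proteins by which blood and immune cells signal to each other. Most bind receptors built from a private chain and a chain shared within a family, such as the common gamma chain, the common beta chain of the IL-3 and IL-5 receptors, or gp130, the product of Il6st. Receptors of these families act through JAK kinases and STAT transcription factors, whereas receptors of the IL-1 and IL-17 families act through adaptor proteins that lead to NF-kB and MAP kinases. Which chains a cell makes decides which of these cytokines it can answer.

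The values are log values, taken as log2, set against a reference level of each probe set (its baseline) that is not given, so they show how a gene differs between the arrays and not how much of it is there. A value near 0 lies near that baseline. If the values are natural logs, the folds printed are too small. A difference is the value with IL-3 less the value without it, so a positive one is higher with IL-3. No replicate exists, so no difference below has a test or a biological error. As a guide to size only, the differences of probe sets of the same gene had a pooled SD of 0.14 (log2) about their gene's mean. This was taken over the 998 genes with more than 1 probe set. Some of these probe sets can read different transcripts, so this SD is no bound on the measurement error. The median value was -0.03 in the array with IL-3 and -0.05 in the other, and the arrays correlated across probe sets with a Pearson r of 0.77, a description of probe sets that are not independent.

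The IL-6 gene was the only member at least 2-fold different, and it was lower with IL-3. At 1.5-fold, the IL-15 gene was also lower, and Il2rb, the receptor chain that IL-2 and IL-15 share, was higher. Thus 1 of 75 members was at least 2-fold lower, against a background of 0.657% of all genes, and 0 members were at least 2-fold higher, against 0.441%. At 1.5-fold, 2 members (2.67%) were lower, against 2.71% of all genes, and 1 member (1.33%) was higher, against 3.52%. The shares past 1.5-fold were thus near the background on the lower side and below it on the higher side, each resting on 1 or 2 genes. The background depends on the scaling: 701 genes were at least 1.5-fold higher and 540 lower as deposited, 480 and 645 after quantile normalization, and 357 and 739 with a trend on the mean value subtracted. The members past 1.5-fold were Il6, Il15 and Il2rb under each of these.

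Most members were close to equal in both arrays. The differences of 48 members (64% of 75) were smaller than the probe set SD, as were those of 55.9% of all genes. Beyond that SD, 13 members (17.3%) were higher and 14 (18.7%) were lower with IL-3, against 26.9% and 17.1% of all genes. Above 0 were 42 members (56%), against 59.8% of all genes, the share to read beside each count above 0 given below; it was 56.4% after median centring, 54.9% after quantile normalization and 51.1% with a smooth trend on the mean value subtracted. The median difference was 0.02 over the members and 0.04 over all genes, and the robust spread (scaled median absolute deviation) was 0.14 and 0.17. Both values lay below the baseline in 52 members and above it in 8.

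**Figure D1:**
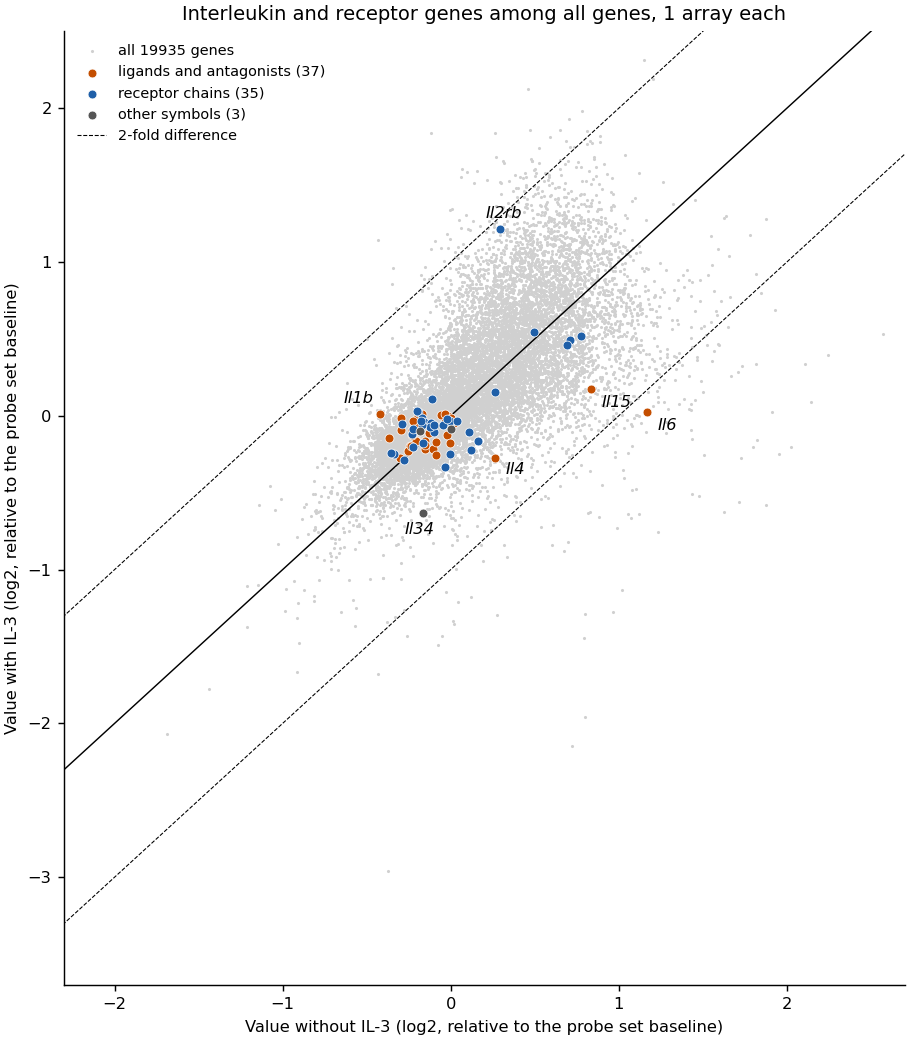
Value with IL-3 (vertical axis) against value without IL-3 (horizontal axis), both log2 relative to each probe set's baseline, for all 19935 genes (grey), 37 ligands and antagonists (orange), 35 receptor chains (blue) and 3 other members (dark grey). The solid line marks equal values and the dashed lines a 2-fold difference; Il6 is the only member beyond a dashed line, and most members lie near the baseline in both arrays.

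The bases before the annotated start of 3 cytokine genes are shown because these genes lie at or near the ends of the ligands' range and their promoters could be read. They are Il6 and Il4, both lower with IL-3, and Il1b, the ligand gene with the largest difference in the other direction. Il15 lay between Il6 and Il4 in difference, but its promoter sequence was not available. Each run holds the 250 bases before the start, 5′ to 3′ on the gene's strand, from RefSeq in build GRCm38.p6. Il6 is at chr5:30012864-30013113 (plus strand), Il4 at chr11:53618666-53618915 (minus strand) and Il1b at chr2:129371140-129371389 (minus strand). Capitals mark matches to any of 5 motifs searched on both strands: a kappaB site (GGGANTTTC), AP-1 (TGANTCA), CRE (TGACGTCA), STAT (TTCNNNGAA) and C/EBP (TTNNGCAA).
Il6: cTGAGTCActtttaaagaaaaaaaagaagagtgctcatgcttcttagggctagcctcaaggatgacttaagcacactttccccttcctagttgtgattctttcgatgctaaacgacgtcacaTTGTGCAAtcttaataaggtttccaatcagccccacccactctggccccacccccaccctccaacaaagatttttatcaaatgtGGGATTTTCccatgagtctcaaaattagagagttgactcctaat
Il4: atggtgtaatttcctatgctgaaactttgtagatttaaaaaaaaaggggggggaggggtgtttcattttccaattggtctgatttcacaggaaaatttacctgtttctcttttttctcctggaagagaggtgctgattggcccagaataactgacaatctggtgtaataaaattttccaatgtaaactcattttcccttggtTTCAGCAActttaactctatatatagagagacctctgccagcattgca
Il1b: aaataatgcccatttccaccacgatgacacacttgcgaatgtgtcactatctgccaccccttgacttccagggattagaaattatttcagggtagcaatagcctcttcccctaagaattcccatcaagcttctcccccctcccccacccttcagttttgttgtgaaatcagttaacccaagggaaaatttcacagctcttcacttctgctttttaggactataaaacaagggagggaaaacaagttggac
In Il6 the kappaB letters lie 44 to 36 bases before the start, the C/EBP letters 128 to 121 bases before it and the AP-1 letters 249 to 243 bases before it. Il4 holds a C/EBP match 48 to 41 bases before its start. Il1b holds 0 matches in this window. Over all 32851 promoter windows of this length, the kappaB letters occur in 0.941%, AP-1 in 6.75%, CRE in 1.55%, STAT in 7.02% and C/EBP in 9.56%. The 58 members with a window have 70 such windows. Of these, 2 (2.86%) hold the kappaB letters (Il6 and Il16), 14 (20%) AP-1, 0 CRE, 9 (12.9%) STAT and 11 (15.7%) C/EBP. The members' shares were not tested against those of other promoters, and the kappaB letters were chosen knowing the site of the Il6 promoter. A match describes the letters only, and 0 matches say only that these letters are not in the window.

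Among the ligands that use the common gamma chain or the common beta chain, and IL-13, most were close to equal, and Il15 and Il4 were the lowest. Il15, a cytokine that keeps lymphocytes and natural killer cells alive, was at 0.17 with IL-3 and 0.83 without it, which is 1.58-fold lower with IL-3. Both values lay above the baseline. Over all genes, 410 (2.06%) were as low or lower in difference.

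Il4, the cytokine of type 2 immune responses that basophils and mast cells also make, was at -0.27 with IL-3 and 0.26 without it. The arrays thus lay on opposite sides of the baseline, and the difference of -0.53 (1.45-fold lower) fell just short of 1.5-fold. In difference, 636 genes (3.19%) were as low or lower.

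The IL-3 gene itself, Il3, was at -0.01 with IL-3 and 0.00 without it, close to equal in both arrays. IL-3 in the medium is protein and is not measured by this probe set. Il5, which drives eosinophils, was 0.18 higher with IL-3, the highest of these 9 ligands. Il2, Il9, Il13 and Il21 differed by less than 0.14 in size, at -0.09, -0.004, 0.05 and -0.01, and Il7, the growth factor of early B cells, by 0.11. In all, 3 of the 9 were above 0 and 6 were below.

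The receptor chains of this group held the highest difference of any member. Il2rb was at 1.21 with IL-3 and 0.29 without it, 1.89-fold higher with IL-3. Its value with IL-3 was the highest of all members in that array. Over all genes, 140 (0.702%) were as high or higher in difference.

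The other chains of the group differed by less than 1.5-fold, some of them in the other direction. Il2ra, the chain that gives the IL-2 receptor its high affinity, was at -0.16 with IL-3 and 0.16 without it. Il21r, the IL-21 receptor chain, was at -0.33 with IL-3 and -0.04 without it, a difference of -0.30. Il2ra, Il4ra, Il17ra and Il27ra are the 4 members whose values were equal and opposite within 1e-05, as were 6.03% of all genes.

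Il15ra, which presents IL-15 to cells with the shared chain, differed by -0.11. Il4ra, shared by the IL-4 and IL-13 receptors, differed by -0.07 and its partner Il13ra1 by 0.16. Il7r, the IL-7 receptor chain of early lymphocytes, differed by -0.01, Il5ra by 0.11 and Il9r by 0.13. Of 10 measured chains, 4 were above 0 and 6 below, with 1 higher and 0 lower by at least 1.5-fold. Il2rg, the common gamma chain gene, was not analysed here.

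**Figure D2:**
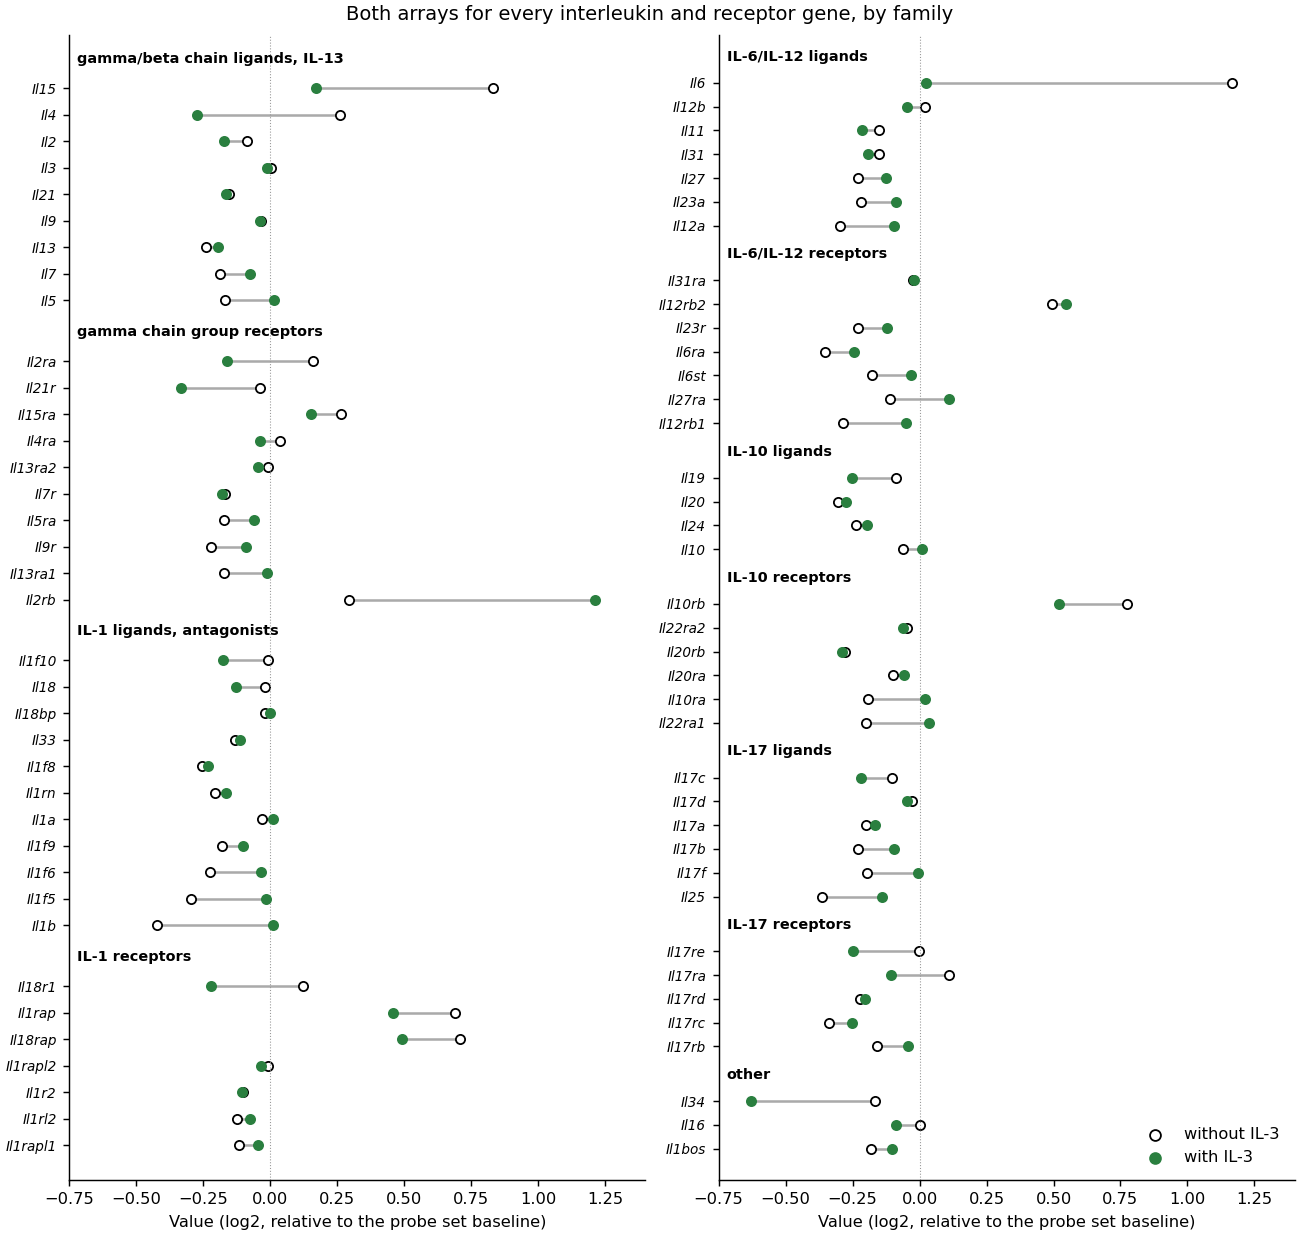
Both arrays for each of the 75 members, by family: open points are without IL-3, green points with IL-3, on a log2 scale relative to each probe set's baseline (dotted line at 0), 1 array per condition. Il6, Il15, Il4 and Il34 show the longest bars with the green point on the left, and Il2rb the longest with it on the right.

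In the IL-6 and IL-12 family, the ligand gene Il6 stood apart from its receptor chains. Il6, the acute-phase cytokine that NF-kB and other stress signals induce, was at 0.02 with IL-3 and 1.17 without it, 2.21-fold lower with IL-3. Its value without IL-3 was the highest of any member in that array, and its value with IL-3 lay near the baseline. Over all genes, 83 (0.416%) were as low or lower in difference.

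The 7 measured receptor chains of the family were all above 0 on the deposited scale, by small amounts. They ranged from 0.004 for Il31ra, a chain of the IL-31 receptor, to 0.24 for Il12rb1, the chain shared by the IL-12 and IL-23 receptors. Il6ra, the IL-6 binding chain, was 0.11 higher and Il6st, which encodes gp130, 0.14 higher. Of the 7 chains, 6 stayed above 0 after median centring and 5 after quantile normalization or with the trend subtracted. Il27ra, the IL-27 receptor chain, was at 0.11 with IL-3 and -0.11 without it.

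The other ligands of the family were near equal. Il12a, which encodes the IL-12 subunit p35, was the highest at 0.20, and Il23a, the IL-23 subunit, differed by 0.13. Il11, Il12b, Il27 and Il31 lay between -0.07 and 0.11. The median of the 7 ligands was -0.04.

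In the IL-1 family, Il1b was the highest ligand gene and most receptor chains were below 0, with no member past 1.5-fold. Il1b, an inflammatory cytokine made as a precursor, was at 0.01 with IL-3 and -0.42 without it, 1.35-fold higher with IL-3. Its value without IL-3 was the lowest of any member in that array. In difference, 1321 genes (6.63%) were as high or higher. In the lowest of 4 bands of genes by mean value, which holds Il1b, 33 of 4984 genes (0.662%) were. Some members lower with IL-3 also had small shares of genes as low within their own bands. These were 1.97% for Il18r1, 2.41% for Il34 and 2.43% for Il4.

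Il1f5, which encodes an antagonist of the IL-36 receptor, was at -0.01 with IL-3 and -0.30 without it, a difference of 0.28. Il1f6, an IL-36 cytokine gene, was 0.19 higher, and Il1f10 was the lowest at -0.17. Il1a, Il1f8, Il1f9, Il1rn, Il33 and the IL-18 inhibitor gene Il18bp lay between 0.02 and 0.08. Of the 11 ligands and antagonists, 9 were above 0 as deposited, 9 after median centring, 7 after quantile normalization and 6 with the trend subtracted.

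Of 7 IL-1 family receptor chains, 5 were below 0. Both chains of the IL-18 receptor were lower with IL-3. Il18r1, the binding chain, was at -0.22 with IL-3 and 0.12 without it, and Il18rap, its signalling partner, was at 0.49 and 0.71. Il18 itself differed by -0.11.

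Il1rap, the accessory chain shared by the receptors of IL-1 and IL-33, was at 0.46 with IL-3 and 0.69 without it. Both chains with an accessory role, Il18rap and Il1rap, thus lay well above the baseline in both arrays. The decoy receptor gene Il1r2 differed by -0.01 and Il1rl2, Il1rapl1 and Il1rapl2 by 0.05, 0.07 and -0.03. Il1r1 and Il1rl1, the IL-33 receptor gene, were not analysed here.

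The IL-10 family held small differences of both signs. Il10rb, a chain shared by several receptors of the family, was at 0.52 with IL-3 and 0.77 without it. Il10ra, the IL-10 binding chain, went the other way, at 0.02 with IL-3 and -0.19 without it. The chains of one receptor thus differed in opposite directions, by -0.25 and 0.22.

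Il22ra1, a chain of the IL-22 receptor, had 2 probe sets, which differed by 0.11 and 0.23. The 3 probe sets of Il20rb lay between -0.01 and 0.02 in difference. The ligand gene Il10 differed by 0.07 and Il19 by -0.16, with Il20 and Il24 at 0.03 and 0.04. Il20ra and the soluble antagonist gene Il22ra2 differed by 0.04 and -0.01.

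In the IL-17 family, which acts mainly on epithelial cells and fibroblasts, the highest ligand was Il25, at -0.14 with IL-3 and -0.37 without it. Il17f was 0.19 higher and Il17b 0.13 higher, while Il17a, Il17d and Il17c differed by 0.03, -0.02 and -0.12. Of the 6 ligands, 4 were above 0 as deposited and 3 with the trend subtracted.

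Among the receptor chains, Il17ra, which most IL-17 receptors share, was at -0.11 with IL-3 and 0.11 without it, and Il17re, the IL-17C receptor chain, at -0.25 and -0.003. Il17rb, Il17rc and Il17rd were 0.12, 0.09 and 0.02 higher, and the other probe set of Il17rd differed by 0.11. No member of the family passed 1.5-fold.

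Of the 3 members outside these families, Il34, an alternative ligand of the CSF1 receptor, was at -0.63 with IL-3 and -0.17 without it, 1.38-fold lower. Its value with IL-3 was the lowest of any member in that array. Il16, which encodes a chemoattractant precursor unlike other interleukins, differed by -0.09. Il1bos, a transcript antisense to Il1b, differed by 0.08.

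Set beside each other, the lowest ligand genes had no receptor chain that was lower to a like extent. Il15 differed by -0.66, and its receptor chains Il2rb and Il15ra by 0.92 and -0.11. Il6 differed by -1.14, with 0.11 and 0.14 for its receptor chains. Il4 differed by -0.53, with -0.07 for Il4ra and 0.16 for Il13ra1. In the IL-18 system the ligand and both receptor chains were all below 0, with the ligand within the probe set SD. Csf1r, the receptor gene for the product of Il34, differed by -0.11.

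**Figure D3:**
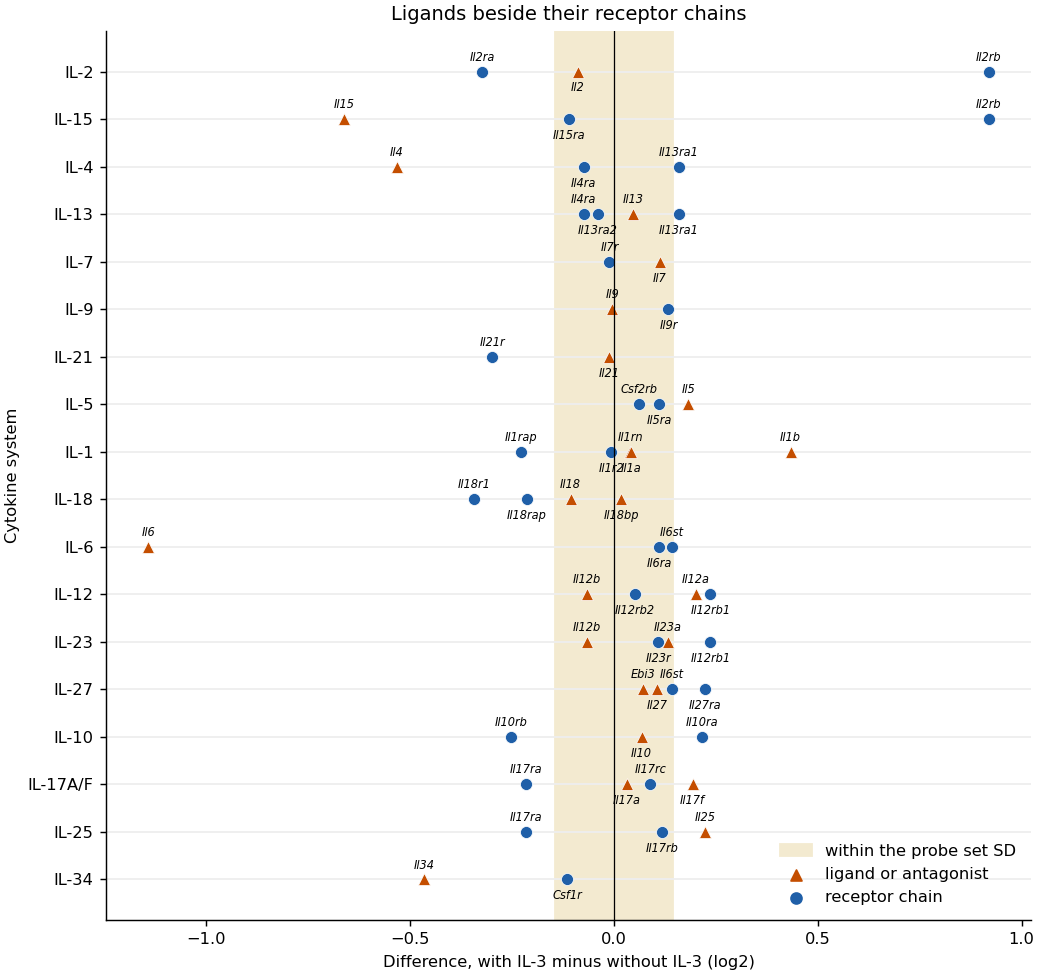
Difference between the arrays (with IL-3 minus without IL-3, log2) for the ligand or antagonist genes (orange triangles) and receptor chain genes (blue circles) of 18 cytokine systems; the shaded band is within the probe set SD of 0.14. Chains used by several systems appear in each of them; Il15 at -0.66 and Il2rb at 0.92 lie farthest apart within a system.

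The scatter of differences depended on the deposited value. From the lowest to the highest of 4 equally filled bands of genes by mean of both arrays, the robust spread over all genes was 0.14, 0.10, 0.18 and 0.42. The members were placed 28, 26, 14 and 7 in these bands. All 3 members past 1.5-fold lay in the highest band, where the spread was widest. Within it, 49 of 4984 genes (0.983%) were as low as Il6, 257 (5.16%) as low as Il15 and 136 (2.73%) as high as Il2rb. The other members of that band, Il10rb, Il12rb2, Il18rap and Il1rap, differed by -0.25, 0.05, -0.21 and -0.23.

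**Figure D4:**
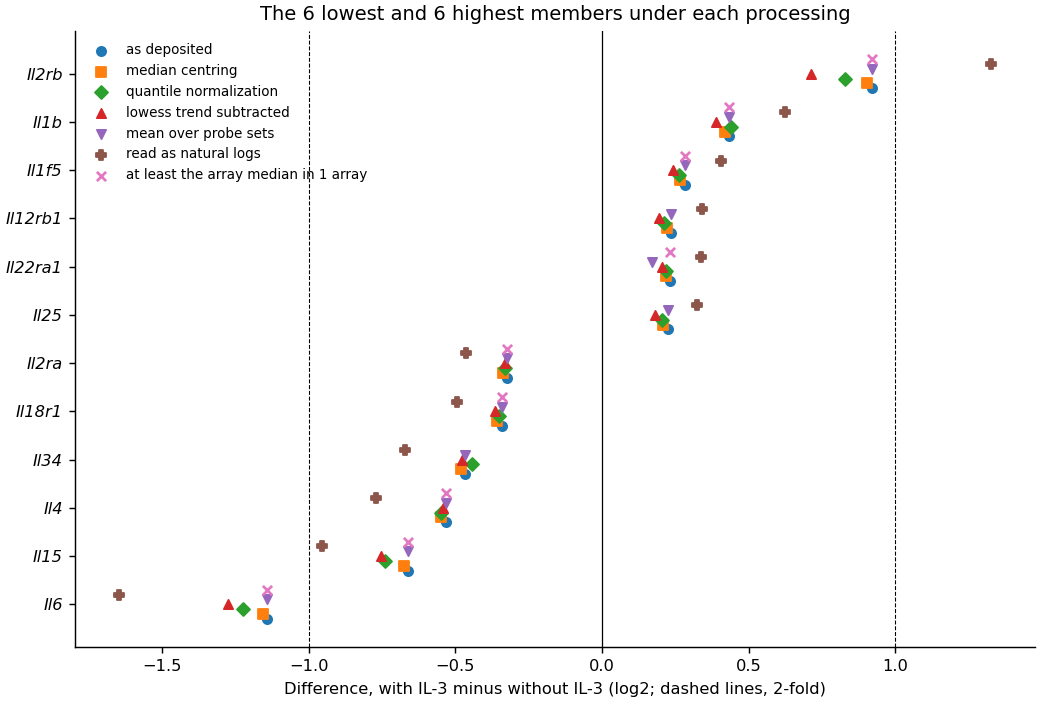
Difference between the arrays (with IL-3 minus without IL-3, log2) for the 6 lowest and 6 highest members as deposited and under 6 alternatives (markers), with dashed lines at 2-fold; a member dropped by the filter has no marker for it. Each of the 12 members keeps its side of 0, Il6 lies beyond 2-fold under all, and Il2rb passes 2-fold only when the values are read as natural logs.

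On the deposited scale, no measured gene in the lists of kinases and STATs, feedback inhibitors or adaptors differed by 1.5-fold or more. In the list of partner ligands and receptors 1 gene did, the ligand gene Osm. Over all genes, 3.52% were at least 1.5-fold higher and 2.71% at least 1.5-fold lower. Among 9 measured JAK kinases and STAT factors, 7 were below 0, with a median of -0.20. Stat2 was the lowest at -0.31, Jak2, the kinase of the IL-3 receptor, differed by -0.28, Stat5b by -0.25 and Stat5a by 0.01. The count below 0 was 7 or 8 of 9 under every scaling tried. Of all 19935 genes, 7995 were below 0 as deposited and 9746 with the trend subtracted. Tyk2 and Stat6 were below 0 by less than the probe set SD, at -0.07 and -0.06.

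Of 14 feedback inhibitors, 10 (71.4%) were above 0 as deposited, with a median of 0.14. With the trend subtracted 8 (57.1%) were, with a median of 0.03, and after quantile normalization the median was 0.08, so the list had no clear direction. Socs1, an inhibitor of JAK kinases that cytokines induce, was at -0.06 with IL-3 and -0.51 without it, and Ptpn6, a phosphatase that damps cytokine receptors, at 0.42 and 0.04. Cish and Socs2, both targets of STAT5, were 0.08 and 0.21 higher. Pias1 was the lowest at -0.40.

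Of 11 adaptors of the IL-1 and IL-17 receptors, 7 were above 0 as deposited and 4 with the trend subtracted, where 1 was at least 1.5-fold lower. Irak2, a kinase of IL-1 receptor signalling, was at -0.40 with IL-3 and 0.16 without it, and Irak3, an inhibitor of that pathway, at 0.02 and 0.56. Myd88, the adaptor of IL-1 receptors, differed by 0.13 and Tab1 by 0.36, the highest of the list.

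Among 15 partner ligands and receptors with other names, 10 were above 0 as deposited and 8 with the trend subtracted. Osm, a gp130 cytokine gene and a STAT5 target, was at -0.23 with IL-3 and 0.98 without it, which was the only difference past 2-fold in these lists. Lif, a cytokine of the same family, went the other way by 0.35. Il3ra differed by -0.43 and Csf2rb, the common beta chain gene, by 0.06. Csf2rb2, in the same list, differed by -0.27.

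**Figure D5:**
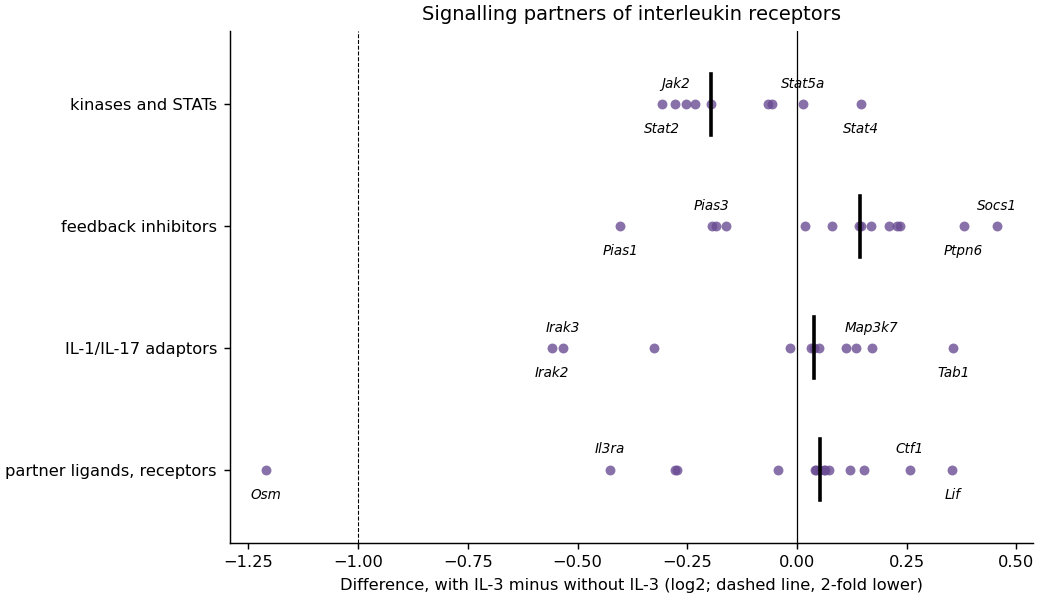
Difference between the arrays (with IL-3 minus without IL-3, log2) for the measured genes of 4 lists of signalling partners, each point 1 gene and each bar the list median; the dashed line marks 2-fold lower. Osm at -1.21 is the only point past it, and the kinase and STAT median lies at -0.20.

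Markers of other blood cells also differed between the arrays, and in these cultures fewer cells of a type and less RNA per cell cannot be told apart. Of 7 mast cell and basophil markers, cells that can make IL-4, IL-6 and IL-13, 4 were lower with IL-3 by at least the probe set SD, as were 17.1% of all genes, and 1 was higher, with sums of the log2 values of -1.82 with IL-3 and 3.66 without it. Fcer1a, the IgE receptor alpha chain gene, differed by -2.46 and Hdc, the histamine synthesis gene, by 0.003. Of 5 eosinophil markers, 4 were lower by that measure, with sums of -4.67 and 2.64.

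The sums of the remaining marker lists were also lower with IL-3. They were 0.54 with and 1.21 without IL-3 for 5 macrophage markers, where Adgre1 differed by -0.79 and 2 were above 0 in difference. For 6 granulocyte markers the sums were -2.96 and 0.22. Ngp differed by -2.87 and Itgam by -1.08, but 4 of the 6 were above 0 in difference. For 5 T cell markers the sums were -0.49 and -0.17. Cd3g differed by -0.80, but 4 of the 5 were above 0 in difference. The 8 measured B-lineage markers summed to -0.32 and -0.21, with 5 of them above 0 in difference. As values set against a baseline carry no level, no marker can be said to be absent, and the pro-B label could not be checked. Il6, Il15 and Il4 were lower with IL-3, as were the sums of all 6 marker lists. The median difference was nevertheless above 0 in the B-lineage, granulocyte and T cell lists, at 0.057, 0.105 and 0.084. The part of these markers in the differences of Il6, Il15 and Il4 was not tested.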

How the data were processed

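RNA of 2 samples was measured on mouse Gene 1.0 ST arrays with biotin-labelled sense-strand cDNA, per the labels' protocols. The authors deposited 1 value per probe set for 28815 probe sets, log values (taken as log2) set against a per-probe-set baseline. The baseline is read from the values: in 1760 probe sets (6.11%) they were equal and opposite within 1e-05. For log base, normalization, background correction and the baseline's arrays, the method is not given in the sources used here. Higher values were taken as more RNA.

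Gene names came from the platform annotation: 21780 had 1 symbol, 1605 several and 5430 none. Each gene is represented by its probe set of highest mean over the arrays. All 75 members were found by identifier in RefSeq's GRCm38.p6 genes, and 3 further probe sets listing such a symbol beside other genes were left out. No filter was applied. With 1 array per group, genes were counted at 2-fold and 1.5-fold, without a test; precision is limited by the number of arrays.

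Members and lists were chosen with earlier results of these data known. Genes were named by a rule: members past 1.5-fold, the 10 largest differences in each direction, the ends of each family and 16 fixed symbols, of which 2 were not measured by such a probe set; other members are given to complete their family. Alternatives were median centring, quantile normalization, a lowess trend (fraction 0.3) subtracted, the mean over probe sets, natural logs and a filter at the array median. Python 3.11.15, pandas 2.3.3, numpy 2.4.6 and statsmodels 0.14.6 were used, and the counting was tested on simulated data.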

Additional observations from a re-analysis of the deposited data

How the results depend on the processing

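Il6 stayed the only member at least 2-fold lower under all 6 alternatives, and Il6, Il15 and Il2rb were past 1.5-fold in each of them. Read as natural logs, 1 member was at least 2-fold higher (Il2rb), 2 were at least 1.5-fold higher (with Il1b) and 4 at least 1.5-fold lower (with Il4 and Il34). With the trend subtracted, Il2rb was 0.71 and Il10rb -0.41 in difference; 35 of 37 named members moved by less than the probe set SD. The members' median was 0.02 as deposited and between -0.02 and 0.03 under the alternatives, so its side of 0 was not settled. Above 0 were 42 of 75 members as deposited, 41 after median centring, 36 after quantile normalization and 33 with the trend subtracted (all genes: 59.8%, 56.4%, 54.9% and 51.1%). The members' median less that of all genes was -0.02 as deposited and between -0.06 and -0.01 under the alternatives, small beside the probe set SD of 0.14. The mean (-0.01) and median (0.02) of the members also differed in sign. Read as natural logs, 2 adaptors, 1 feedback inhibitor and 2 partner genes were past 1.5-fold. The filter kept 39 members and keeps a gene partly through its difference. No paired analysis was possible because each group has 1 array. Signal over background could not be judged from baseline-relative values.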

Other observations

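Neighbouring member genes, in the order of protein-coding genes in the RefSeq table, shared a direction in some clusters and not in others. Many of these differences are smaller than the probe set SD of 0.14. The values were set side by side after the data were seen, and no test was made. Il4 (-0.53) lies next to Il13 (0.05), with Il5 (0.18) beyond 1 further gene. Il10 (0.07) lies next to Il19 (-0.16), and Il20 (0.03) and Il24 (0.04) follow. Il17re (-0.25) lies next to Il17rc (0.09). Il1f5 (0.28) lies next to Il1f10 (-0.17). Some adjacent genes lay on the same side of 0, as Il18r1 (-0.34) and Il18rap (-0.21), Il2ra (-0.32) and Il15ra (-0.11), and Il4ra (-0.07) and Il21r (-0.30), all lower with IL-3, and Il1a (0.04) and Il1b (0.43), both higher.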
